A study of Chlorocebus sabaeus with 10 samples.

Results

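Polyunsaturated fatty acid (PUFA) desaturases and elongases are the endoplasmic reticulum enzymes that turn dietary linoleic and alpha-linolenic acid into arachidonic acid, eicosapentaenoic acid and docosahexaenoic acid (DHA). The members were fixed as 6 gene symbols, FADS1, FADS2, FADS3, ELOVL1, ELOVL2 and ELOVL5, and were looked up among the 28078 transcripts of the deposited table. A transcript carried the symbol of 5 of the 6, each of these 5 had exactly 1 transcript, and all 5 passed the filter on low counts. No transcript carried the symbol ELOVL1, the elongase of saturated and monounsaturated very long chains, and it was not analysed here.

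The livers came from 10 female vervet monkeys (Chlorocebus sabaeus), all kept on chow beforehand. For 6 weeks 5 received a high fructose (HFr) diet and 5 stayed on chow. The study called the animals age-matched, although the mean age it gives was higher on HFr than on chow, without a significant difference. The part of age in the differences below was not tested. Each liver biopsy gave 1 RNA-Seq library of polyadenylated RNA, so the replicates are separate animals. The comparison asked how the HFr diet was reflected in liver transcripts. Totals lay between 2977282 and 4992505 estimated counts, of which 34.7% to 73.6% fell on mitochondrial transcripts, with means of 55.5% ± 11.8 on HFr and 55.4% ± 16.5 on chow (SD, n = 5 each; two-sided exact permutation p = 0.992). Chow replicate 4 had the fewest counts left for nuclear transcripts, 864571, and chow replicate 3 the most, 2657103. All 9 hepatocyte markers with a transcript passed the filter, and their summed level was 47700 to 74600 normalized counts on HFr and 38700 to 78300 on chow. Normalized counts are CPM, that is counts relative to a library size that was scaled with trimmed means of M values (TMM).

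In the pathway the enzymes work in alternation. FADS2, the delta-6 desaturase, catalyzes the first and rate-limiting double bond, ELOVL5 adds a unit of 2 carbons to its product, FADS1, the delta-5 desaturase, makes arachidonic and eicosapentaenoic acid, and ELOVL2 elongates these further on the way to DHA, which is completed in peroxisomes. Liver is a main site of this synthesis, and FADS1 and FADS2 are known targets of the transcription factors SREBP-1 and PPARA. FADS3 introduces a double bond into sphingoid bases rather than into PUFA.

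The 3 FADS genes form a cluster on chromosome 1 of the vervet assembly ChlSab1.1. FADS3 (ENSCSAG00000006479) was annotated from 11910318 to 11928682 on the plus strand, FADS2 (ENSCSAG00000006475) from 11934270 to 11974030 on the minus strand, and FADS1 (ENSCSAG00000006469) from 12037513 to 12055159 on the plus strand. FADS1 and FADS2 thus lay head to head with 63483 bases between their annotated 5′ ends, whereas FADS2 and FADS3 lay tail to tail with a gap of 5587 bases. Both elongases were on the plus strand of chromosome 17, ELOVL5 (ENSCSAG00000013156) from 19277593 to 19307625 and ELOVL2 (ENSCSAG00000007481) from 61099255 to 61159207. Each span covers the exons and introns of 1 protein-coding transcript. The FADS genes are paralogs of similar sequence. All 50 estimated counts of the 5 members were whole numbers, as were 95.97% of the values of all transcripts with a count. Whole numbers do not show how reads that match more than 1 paralog were assigned.

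The largest difference between the diets among the members was that of FADS2, which was higher on HFr, and the only member with an unadjusted p under 0.05 was ELOVL2, which was lower on HFr. FADS1, FADS3 and ELOVL5 differed by less than the spread between animals. Among the 5 tested members 1 thus fell under an unadjusted p of 0.05 (quasi-likelihood test in edgeR), beside 341 of all 7948 tested transcripts, or 4.29% (2.06% higher and 2.23% lower on HFr). None of the members passed Benjamini-Hochberg adjustment over all tested transcripts (adjusted p = 0.9996 for each from edgeR), and the count over all transcripts was also 0 with edgeR and 2 with DESeq2, neither a member. In no member were the diets fully separated, which was the case for 0.541% of the tested transcripts. The median log2 fold change of HFr over chow (log2FC) was 0.14 over the 5 members and 0 over all tested transcripts.

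**Figure D1:**
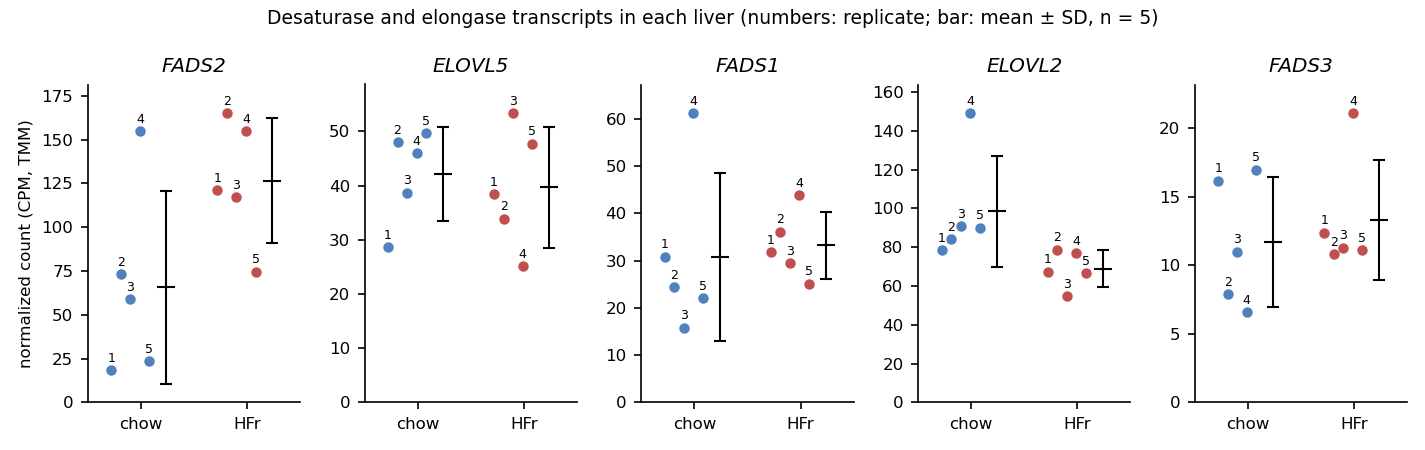
Normalized counts (vertical axes, CPM after TMM scaling, each starting at 0) of the 5 members in the 5 chow and 5 HFr livers; each point is 1 animal with its replicate number, and bars show mean ± SD. FADS2 spans 18.3 to 155 on chow and 74.6 to 165 on HFr, while ELOVL2 lies at 54.9 to 78.7 on HFr and 78.6 to 149 on chow.

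FADS2 had 121, 165, 117, 155 and 74.6 normalized counts in HFr replicates 1 to 5, from 291 to 736 estimated counts. In chow replicates 1 to 5 it had 18.3, 73.1, 58.9, 155 and 23.4 normalized counts, from 51 to 334 estimated counts. The chow mean was exceeded by all 5 HFr animals, and the chow animals fell into a wide range in which replicates 1 and 5 were low, replicates 2 and 3 intermediate and replicate 4 as high as the upper HFr animals. The means were 127 ± 35.7 on HFr and 65.7 ± 54.9 on chow (SD, n = 5 each), a log2FC of 0.96 (SE, the standard error, 0.46, 95% interval -0.02 to 1.94, unadjusted p = 0.0552 from edgeR). The highest chow value was 8.46 times the lowest, against 2.21 times on HFr.

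With chow replicate 4 left out, the log2FC of FADS2 was 1.53 (unadjusted p = 0.00180 from edgeR), and with any other single animal left out it lay between 0.71 and 1.1, the upper value being that without HFr replicate 5 (unadjusted p = 0.039 from edgeR). The 0.71 and the next lowest value, 0.74, were those without chow replicate 1 and without chow replicate 5. These replicates were also those with the highest summed level of 8 stellate cell and fibroblast markers, 827 and 686 normalized counts, where the other chow animals had 180 to 294 and the HFr animals 224 to 407. With the mean log2 level of these markers as a covariate the log2FC of FADS2 was 0.95 (unadjusted p = 0.0354 from edgeR). With chow replicates 1 and 5 both left out the log2FC was 0.41 (unadjusted p = 0.250 from edgeR), a smaller value that follows in part from their having the lowest FADS2 on chow. The part of cell composition in the FADS2 difference was not tested, and in bulk tissue fewer cells of a type and less RNA per cell cannot be told apart. Chow replicate 4 had the highest mitochondrial share (73.6%), the fewest nuclear counts and the lowest TMM scaling factor (0.607). The part of these in its levels was not tested.

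ELOVL2 had 67.4, 78.7, 54.9, 77.1 and 66.5 normalized counts in HFr replicates 1 to 5, and 78.6, 84.1, 90.8, 149 and 90.1 in chow replicates 1 to 5. All 5 HFr animals lay below the chow mean, and the groups overlapped only in that HFr replicate 2 was marginally above chow replicate 1. The means were 68.9 ± 9.60 and 98.4 ± 28.5 (SD, n = 5 each), a log2FC of -0.51 (SE 0.20, 95% interval -0.94 to -0.08, unadjusted p = 0.0235 from edgeR). The estimated counts behind these values were 136 to 351 on HFr and 196 to 495 on chow. Chow replicate 4 stood apart at 149 normalized counts, and without it the log2FC was -0.32 (unadjusted p = 0.0812 from edgeR). Without HFr replicate 3 it was -0.45 (unadjusted p = 0.0591 from edgeR). The library of chow replicate 4 had the lowest TMM scaling factor, 0.607, and a low factor raises every normalized count of a library. Its estimated count of ELOVL2 was 294, between the 196 and 495 at the ends of the chow range. With library size alone in place of TMM the log2FC was -0.41 (unadjusted p = 0.256 from edgeR).

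**Figure D2:**
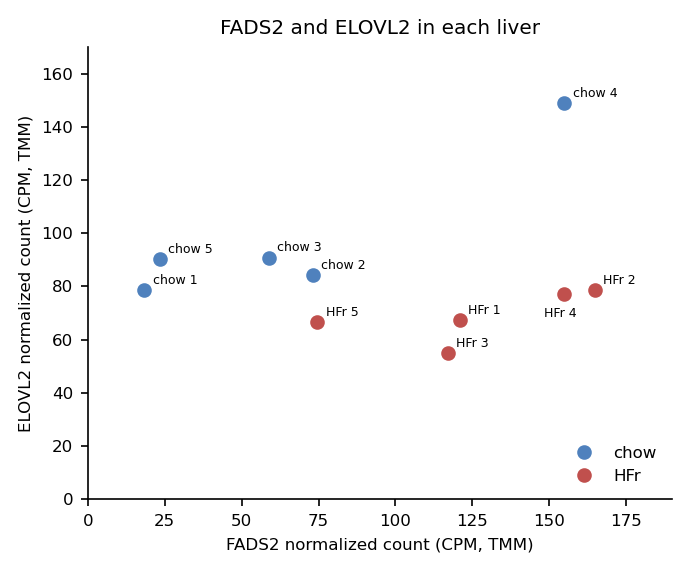
ELOVL2 (vertical axis) against FADS2 (horizontal axis), both in normalized counts (CPM, TMM), with 1 labelled point for each of the 10 livers. The 5 HFr livers lie below and to the right of chow replicates 1, 2, 3 and 5 apart from HFr replicate 2, whose ELOVL2 level of 78.7 is level with the 78.6 of chow replicate 1, and chow replicate 4 is high for both genes.

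FADS1 had 31.7, 36.1, 29.5, 43.8 and 25.1 normalized counts in HFr replicates 1 to 5 and 30.8, 24.3, 15.8, 61.1 and 22.1 in chow replicates 1 to 5. The HFr animals lay within the chow range, whose ends were chow replicates 3 and 4. The log2FC was 0.14 (SE 0.30, 95% interval -0.52 to 0.79, unadjusted p = 0.661 from edgeR), so that a doubling or halving of the mean lay outside the interval. Without chow replicate 4 it was 0.51 (unadjusted p = 0.0401 from edgeR), and without chow replicate 3 it was -0.04.

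ELOVL5 had 38.4, 33.9, 53.3, 25.1 and 47.7 normalized counts in HFr replicates 1 to 5, and 28.6, 48.0, 38.7, 46.0 and 49.6 in chow replicates 1 to 5. The ranges largely coincided, and the log2FC was -0.09 (SE 0.22, 95% interval -0.56 to 0.39, unadjusted p = 0.700 from edgeR). Its direction rested on HFr replicate 4, without which it was 0.04.

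FADS3 was the member with the fewest counts, from 13 to 95 per animal. It had 12.4, 10.8, 11.3, 21.1 and 11.1 normalized counts in HFr replicates 1 to 5 and 16.2, 7.88, 11, 6.57 and 17.0 in chow replicates 1 to 5. HFr replicate 4 stood apart from the other HFr animals, and the log2FC of 0.19 (SE 0.29, 95% interval -0.43 to 0.81, unadjusted p = 0.521 from edgeR) was -0.05 without it. Chow replicates 1 and 5, which had the lowest FADS2, had the highest FADS3 of the chow animals.

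Ratios of 2 members within a library do not depend on how libraries are scaled against each other, and they were compared on the log2 scale of estimated counts (with 0.5 added). The ratios describe changes relative to the other transcript and not levels per molecule, since transcript lengths differ. Of the 4 ratios between successive pathway steps or neighbouring genes, 2 had an unadjusted p under 0.05 and none passed adjustment over the 4. ELOVL2/FADS1 was 1.06 ± 0.23 on HFr and 1.79 ± 0.51 on chow (SD, n = 5 each), a difference of -0.73 (SE 0.25, two-sided exact permutation p = 0.0238, adjusted 0.0794). All HFr animals lay between 0.82 and 1.40, and chow replicates 1 and 4, at 1.35 and 1.28, were within this range.

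FADS1/FADS2, the ratio of the head-to-head neighbours, was -1.90 ± 0.23 on HFr and -0.83 ± 1.12 on chow (SD, n = 5 each; difference -1.07, SE 0.51, two-sided exact permutation p = 0.0397, adjusted 0.0794). The 5 HFr animals were tightly grouped between -2.19 and -1.57. Chow replicates 2, 3 and 4, at -1.58, -1.89 and -1.33, were close to them, whereas chow replicates 5 and 1 stood at -0.09 and 0.75. Thus in the 2 chow livers with low FADS2 the count of FADS1 was 0.942 and 1.68 times that of FADS2, where in the other 8 livers it was 0.219 to 0.396 times. The difference was -0.67 without chow replicate 1 (two-sided exact permutation p = 0.0556). Without any 1 of the 5 HFr animals it lay between -1.15 and -1, with p above 0.05 (exact permutation p 0.0635 to 0.143). Leaving out an animal also leaves fewer assignments for the test. ELOVL5/FADS2 was -1.67 ± 0.81 on HFr and -0.25 ± 1.12 on chow (difference -1.42, SE 0.62, two-sided exact permutation p = 0.0635). FADS1/ELOVL5 differed by 0.35 (SE 0.47, two-sided exact permutation p = 0.476), less than the spread between animals.

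The ratio of the first desaturase to the last elongase, FADS2/ELOVL2, was examined after the values had been seen and is given as a description without a test. It sets the member with the highest log2FC over the one with the lowest, a choice that favours a difference between the diets. The count of FADS2 was 1.8, 2.1, 2.14, 2 and 1.12 times that of ELOVL2 in HFr replicates 1 to 5. In chow replicates 1 to 5 it was 0.234, 0.870, 0.649, 1.04 and 0.262 times that of ELOVL2. The diets did not overlap in this ratio, although HFr replicate 5 and chow replicate 4 were near each other. The mean log2 ratio was 0.84 ± 0.39 on HFr and -0.96 ± 1.0 on chow (SD, n = 5 each), a difference of 1.79 (SE 0.48) that ranged from 1.51 to 2.05 when 1 animal at a time was left out.

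**Figure D3:**
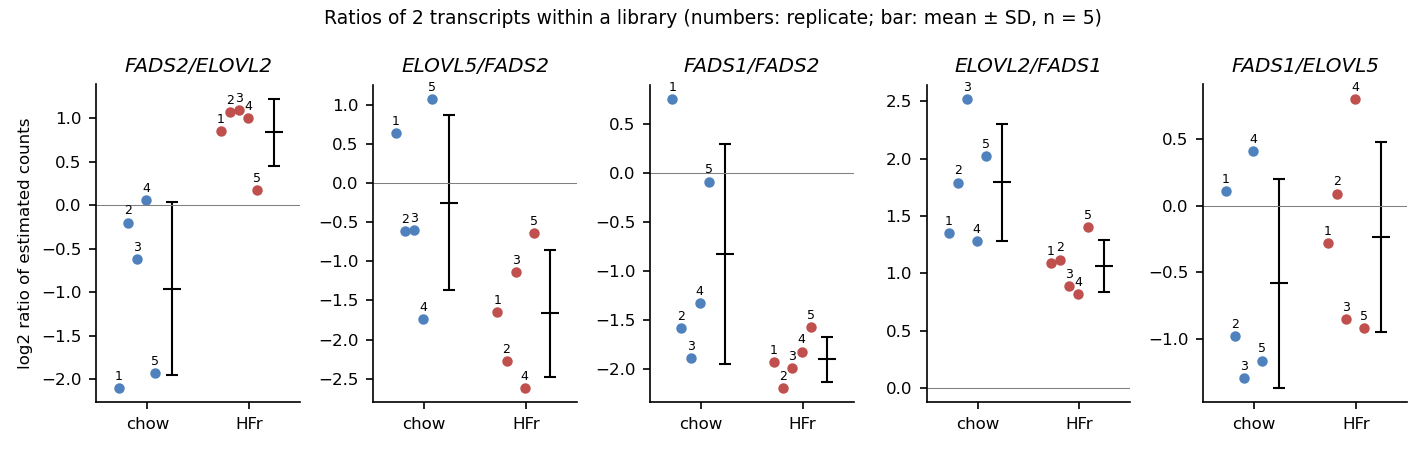
Log2 ratios of the estimated counts of 2 members within each library (vertical axes, 0.5 added to each count) for the 5 chow and 5 HFr livers; points carry replicate numbers and bars show mean ± SD. FADS2/ELOVL2, chosen after the values had been seen and not tested, lies at 0.17 to 1.09 on HFr and -2.10 to 0.06 on chow. FADS1/FADS2 is tightly grouped on HFr with chow replicates 1 and 5 far above.

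Across the 10 animals FADS1 and FADS2 had a Pearson r of 0.55 (permutation p = 0.104, adjusted 0.522) and a Spearman rho of 0.77 (permutation p = 0.0129, adjusted 0.129), and r was 0.58 without the 2 animals farthest from the median of FADS1. None of the 10 pairs of members passed adjustment. With 5 animals, a single diet holds too few for a value of its own. FADS2 and ELOVL2 had an r of 0.01 (permutation p = 0.984), but 0.72 once the mean of each diet was subtracted, the diets differing in opposite directions for these genes. For FADS1 and ELOVL2 the r was 0.37 (permutation p = 0.282) and 0.74 after this subtraction, and for FADS1 and FADS2 the subtracted value was 0.53. These values are descriptions, since the genes share each library and its scaling and chow replicate 4 was the highest chow animal for all 3.

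The transcripts whose levels followed each member most closely over the 10 animals, by Pearson r of log2(normalized count + 1), are given as a description. For FADS2 they were CISD3 (r = 0.95), HSD17B10 (0.91) and SAMM50 (0.90). For ELOVL2 they were WDR70 (0.89), CEP164 (0.89) and SLC27A5 (0.88), the last of which is also a gene of the pathway lists below. For FADS1 they were GNB2 (0.93), an unnamed gene (ENSCSAG00000012879, 0.92) and MCRS1 (0.91). For FADS3 they were GCDH (0.94), P3H2 (0.92) and DNASE1L1 (0.87), and for ELOVL5 they were IFIT1 (0.93), AHCYL1 (0.90) and PSMA7 (0.87). No gene was shared by these 5 sets of 3, each taken as the highest values among all other tested transcripts.

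Other genes of the pathway were grouped by role, in lists chosen with earlier results of these data known. The counts below stand beside the 4.29% of all tested transcripts with an unadjusted p under 0.05. No gene of these lists passed Benjamini-Hochberg adjustment over all tested transcripts. Of the other desaturases and elongases, 8 of 9 had a transcript and 3 were tested, none with an unadjusted p under 0.05. SCD, the stearoyl-CoA desaturase that makes monounsaturated fatty acids, varied widely between animals on both diets, from 33.4 to 392 normalized counts on HFr and from 8.91 to 421 on chow (log2FC -0.28, SE 0.74). SCD5, its paralog, had the smallest p of this group (log2FC -0.48, SE 0.50, unadjusted p = 0.355 from edgeR). ELOVL6, the elongase of saturated fatty acids, had at most 6 estimated counts in any animal and was not tested.

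Each elongase provides the first of 4 reactions of a cycle, and the other 3 reactions are shared. Of 7 genes for these reactions 4 were tested. HACD1, a dehydratase of the cycle, was higher on HFr with 16.4 ± 5.05 against 8.94 ± 2.84 normalized counts (SD, n = 5 each; log2FC 0.82, SE 0.29, unadjusted p = 0.0123 from edgeR). HSD17B12, HACD2 and TECR, the other cycle enzymes tested, had log2FC values of 0.27, -0.10 and 0.12. The desaturases draw electrons from cytochrome b5, and none of the 4 tested genes of that system had an unadjusted p under 0.05, CYB5A having the smallest (log2FC -0.21, unadjusted p = 0.401 from edgeR).

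Of 8 genes of the peroxisomal step that completes DHA, 5 were tested. Of these, 1 had an unadjusted p under 0.05, beside 4.29% of all tested transcripts. ABCD3, a peroxisomal membrane transporter of fatty acyl-CoA, was higher on HFr, with 94.2 ± 22.0 against 57.0 ± 14.4 normalized counts (SD, n = 5 each; log2FC 0.72, SE 0.22, unadjusted p = 0.00479 from edgeR). The median of the 5 was 0.22, and SCP2, the thiolase and sterol carrier, was the one below 0 (-0.24).

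Of 10 genes of PUFA activation and transport, 8 were tested, with 1 higher and 2 lower at an unadjusted p under 0.05. Over all tested transcripts 2.06% were higher and 2.23% lower at this threshold, and none of the 8 passed adjustment. FABP1, the liver fatty acid binding protein, had a log2FC of 1.20 (SE 0.34, unadjusted p = 0.00320 from edgeR). SLC27A5, which activates bile acids and very long chain fatty acids, had 253 ± 37.2 normalized counts on HFr and 385 ± 111 on chow (SD, n = 5 each; log2FC -0.61, SE 0.21, unadjusted p = 0.0125 from edgeR). ACSL3, an acyl-CoA synthetase, had a log2FC of -0.41 (SE 0.19, unadjusted p = 0.0447 from edgeR). SLC27A5 and ELOVL2 shared their highest animal, chow replicate 4, at 579 and 149 normalized counts.

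None of 6 tested genes of phospholipid remodeling had an unadjusted p under 0.05, LPCAT2 having the smallest (unadjusted p = 0.118 from edgeR). Of 21 eicosanoid enzymes 6 were tested. PTGIS, the prostacyclin synthase, had 1.98 to 6.78 normalized counts on HFr and 2.02 to 25.4 on chow (log2FC -1.44, SE 0.54, unadjusted p = 0.0174 from edgeR), with its highest chow values in replicates 1 and 5. The cyclooxygenases PTGS1 and PTGS2 and the lipoxygenases ALOX5, ALOX12, ALOX15 and ALOX15B did not pass the filter on low counts.

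None of 13 tested regulators had an unadjusted p under 0.05, and their median log2FC was -0.02. SREBF1, which encodes SREBP-1, had 52.8 ± 37.1 normalized counts on HFr and 56.3 ± 37.5 on chow (SD, n = 5 each; log2FC -0.09, SE 0.52). SCAP, the SREBP escort protein, had the smallest p (log2FC 0.39, unadjusted p = 0.124 from edgeR). PPARA had 2 to 12 estimated counts per HFr animal and 2 to 19 per chow animal and was not tested. Of 8 genes beside the FADS cluster in primate genomes 5 were tested, none with an unadjusted p under 0.05. TMEM258, an oligosaccharyltransferase subunit, was closest (log2FC 0.26, unadjusted p = 0.246 from edgeR).

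**Figure D4:**
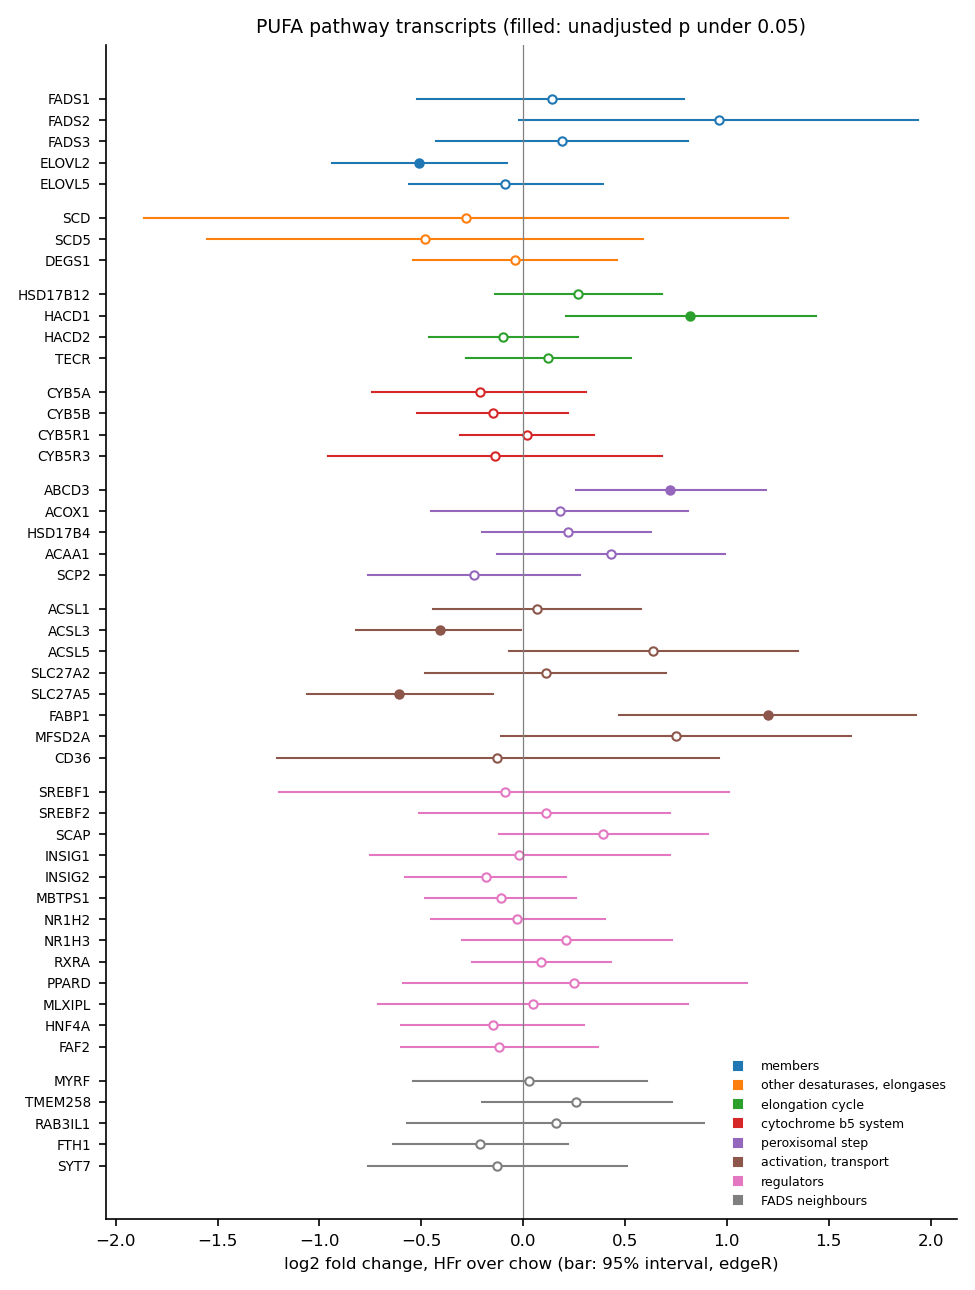
Log2 fold changes of HFr over chow (horizontal axis) with 95% intervals from edgeR for the members and 7 lists of related genes, 1 row for each tested gene and 1 color for each list; filled points have an unadjusted p under 0.05. ELOVL2, ACSL3 and SLC27A5 lie below 0, HACD1, ABCD3 and FABP1 lie above 0, and the interval of FADS2 runs from -0.02 to 1.94.

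Markers of other cells in a liver biopsy were summed per animal. The 9 macrophage markers summed to 114 to 274 normalized counts on HFr and 72.9 to 281 on chow, the 8 lymphocyte markers to 14.0 to 24.6 and 15.5 to 19.5, and the 6 cholangiocyte markers to 6 to 28.7 and 10.1 to 32.9. The 8 endothelial markers summed to 343 to 457 and 263 to 450. Only 1 of them, the receptor gene KDR, had an unadjusted p under 0.05, being higher on HFr (log2FC 0.57, unadjusted p = 0.0109 from edgeR). VWF (-0.21), STAB1 (-0.19) and CDH5 (-0.02) had log2FC values below 0. Of the 6 stellate cell and fibroblast markers tested, only ACTA2 had an unadjusted p under 0.05, being lower on HFr (log2FC -1.57, unadjusted p = 0.00646 from edgeR). COL1A1 was the 1 marker with a log2FC above 0 (0.2), and the median of the 6 was -0.35. Blood cell markers summed to 103 to 351 and 64.2 to 353, and skeletal muscle markers to 0.377 to 2.02 and 0.438 to 2.74, with 3 of the 6 muscle markers at 0 in every animal. Adipocyte markers summed to 117 to 192 and 44.5 to 261. Most of this sum was PLIN1, at 111 to 180 on HFr and 42 to 250 on chow, whereas 2 adipocyte markers, ADIPOQ and LEP, were at 0 in every animal. Over the 10 animals the Pearson r of FADS2 with the mean log2 level of the stellate cell and fibroblast markers was -0.58. With the other marker lists the r of FADS2 ran from -0.47 (skeletal muscle) to 0.49 (lymphocyte). Values of similar size occurred for other members, such as 0.68 for FADS1 with endothelial and -0.6 for FADS3 with lymphocyte markers. These values are descriptions taken from many pairs and were not tested.

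**Figure D5:**
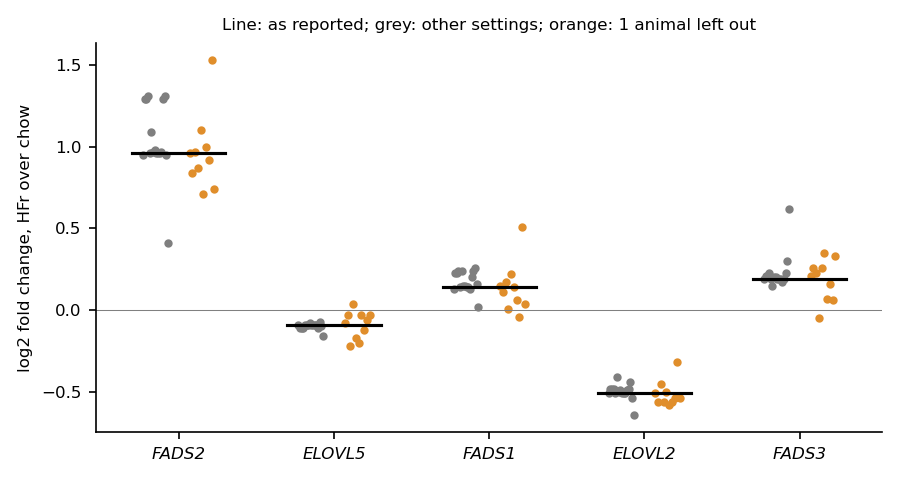
Log2 fold change of HFr over chow (vertical axis) of each member as reported (line), under other tests, normalizations, filters and covariates (grey points) and with 1 animal left out (orange points). FADS2 stays between 0.41 and 1.53 and ELOVL2 between -0.64 and -0.32, whereas FADS1, FADS3 and ELOVL5 each fall on the other side of 0 in 1 fit that leaves out an animal.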

How the data were processed

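The deposited estimated counts come from paired-end reads that the authors demultiplexed with CASAVA 1.8 and aligned to ChlSab1.1 (STAR 2.5.3a in the submitters' processing notes). The reads were distributed over Ensembl transcripts with the expectation-maximization counter of Partek Flow. Signal values normalized by TMM were also deposited; within a sample they equal the estimated counts times a constant (to 0.00156%). Deposited starts count from 1 and the listed stop is excluded, so 1 was subtracted.

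Counts were rounded, filtered (filterByExpr, minimum count 10, minimum total 15) and compared with edgeR 4.0.16 (quasi-likelihood, TMM, diet as the only term) in R 4.3.3, with limma 3.58.1 and DESeq2 1.42.0 as alternatives. Standard errors are the log2 fold change divided by the square root of F. The threshold of 0.05 was applied to unadjusted p-values, as in the study, and to adjusted ones. Exact permutation tests covered the 252 assignments of 5 of 10 animals (smallest p 0.00794), or fewer where 1 animal was left out, and correlations used 100000 permutations. The members and lists were chosen with earlier results of these data known. Named were all members, list genes under the threshold or else the smallest p, SCD, ELOVL6, SREBF1 and PPARA, and the 3 transcripts most like each member; HSD17B12, HACD2, TECR, SCP2 and the cyclooxygenases and lipoxygenases were named after their values were seen. The fit was tested on simulated data. An unadjusted p under 0.05 was given to 4.93% of transcripts without a change and to 90.8% of those changed by a log2 value of 1. Of the latter only 42.9% passed adjustment at 0.05, against 95.8% of those changed by a log2 value of 2. Pairs of libraries of a diet differed by more than sampling noise (chi-square per degree of freedom 11.1 to 133).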

Additional observations from a re-analysis of the deposited data

Results flagged for a closer look

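Among 22 sets of 5 values (members, their ratios and the mitochondrial share in each diet), 3 held a sample far from the others by Dixon's test, which chance alone gives for about 1 set in 20. FADS3 reached 21.1 normalized counts in HFr replicate 4, where the other HFr animals had 10.8 to 12.4. ELOVL2 reached 149 normalized counts in chow replicate 4, where the other chow animals had 78.6 to 90.8. That library had the lowest TMM scaling factor (0.607). The log2 ratio FADS2/ELOVL2 was 0.17 in HFr replicate 5, where the other HFr animals had 0.85 to 1.09.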

How the results depend on the processing

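Settings other than leaving out 1 animal kept the direction of all 5 members. FADS2 had an unadjusted p under 0.05 in 10 of 26 alternatives: with DESeq2 (log2 fold change 0.95), limma with a pseudocount of 1 (1.29) or 0.1 (1.31), library size alone (1.09), all transcripts with a count (0.97), at least 10 counts in every animal (0.98), the replicate block (1.29, unadjusted p = 0.0034 from edgeR), the fibroblast markers as a covariate (0.95), and without HFr replicate 5 or chow replicate 4. The number of members under 0.05 was then 2 (and 1 with library size alone), against 1 as reported. ELOVL2 kept p under 0.05 in 23 of 26, and with library size alone was -0.41 (unadjusted p = 0.256 from edgeR). That normalization called 123 of 7948 transcripts (1.55%) against 341 (4.29%), the edgeR fit on all transcripts with a count 756 of 16066 (4.71%), and an equal-variance test on log2 of the authors' normalized values, which differs in test, values and filter, 633 of 16105 (3.93%). With 1 animal left out, the log2 fold changes ranged from -0.04 to 0.51 for FADS1, 0.71 to 1.53 for FADS2, -0.05 to 0.35 for FADS3, -0.58 to -0.32 for ELOVL2 and -0.22 to 0.04 for ELOVL5, with 0 to 2 members under 0.05. The log2 ratio differences ranged from -1.79 to -1.09 for ELOVL5/FADS2, -0.85 to -0.54 for ELOVL2/FADS1 and -1.33 to -0.67 for FADS1/FADS2, and the mitochondrial difference from -5.1 to 4.61 percentage points. Paired by replicate number, ELOVL2/FADS1 stayed at -0.73 and FADS1/FADS2 at -1.07, both with an exact permutation p of 0.0625, the smallest that 5 pairs allow. Over all tested transcripts, the deviations of same-numbered animals from their diet means correlated at -0.29 to 0.10. These correlations cannot show whether the numbers pair animals, for all transcripts or for a single member. The causes were not tested. Fits using the authors' normalized values, the fibroblast covariate, the fit without chow replicates 1 and 5, and FADS2/ELOVL2 were chosen after seeing the data.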
